A study of Homo sapiens with 10 samples.

Results

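The genes described here are 10 that encode chaperones and disulfide isomerases of the endoplasmic reticulum (ER): HSPA5, HSP90B1, HYOU1, CALR, CANX, P4HB, PDIA3, PDIA4, PDIA6 and SDF2L1. They were taken by gene symbol from a table of raw counts, in which each symbol had its own row, and make up 10 of its 28380 genes. RPE-1 is an established line of telomerase-immortalized human retinal pigment epithelial cells. It was treated for 4 h with 25 µM sulforaphane (SFN), an isothiocyanate from cruciferous vegetables, or with its vehicle DMSO, in 5 replicates of 50000 cells each. RNA was sequenced from the 3′ ends of transcripts, so a count reflects a gene's mRNA but levels of different genes are not compared. The comparison asks how mRNAs of the ER folding machinery differ between SFN and vehicle after 4 h.

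Secretory and membrane proteins enter the ER unfolded. There BiP, the product of HSPA5, binds exposed hydrophobic stretches, the lectins calnexin and calreticulin hold glycoproteins, and protein disulfide isomerases form and rearrange disulfide bonds. When unfolded proteins accumulate, the unfolded protein response (UPR) is known to raise the transcription of these genes through ATF6 and XBP1, which act on ER stress response elements (ERSE) in their promoters.

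Because these elements are the regulatory sequences that the genes are known for, they were looked up first. The RefSeq promoter windows (GRCh38.p14), which run from 250 bases before to 50 bases after a gene's start, matched 9 of the 10 genes by symbol, all but PDIA3. Both strands were searched for ERSE, which is CCAAT and CCACG with 9 bases between them, and for ERSE-II, which is ATTGG and CCACG with 1 base between them. ERSE occurred in 5 genes, HSPA5, HSP90B1, CALR, CANX and PDIA6, whereas 0.0916% of all 27305 genes with a window, or 25 genes, held it. ERSE-II occurred in HYOU1 and SDF2L1, and in 19 genes (0.0696%) of all. P4HB and PDIA4 had neither in their windows. A match of letters is a description and not a measured binding site. Only exact letters within these windows were counted, so an element that differs in a fixed letter or lies outside would be missed. The ERSE matches are given on the strand of the gene, 5′ to 3′, with the fixed letters in capitals. CGTGG and ATTGG are CCACG and CCAAT read on the other strand.
HSPA5, chr9:125241391-125241409, minus strand: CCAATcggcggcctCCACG
HSP90B1, chr12:103930216-103930234, plus strand: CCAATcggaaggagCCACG
HSP90B1, chr12:103930321-103930339, plus strand: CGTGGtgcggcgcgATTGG
CALR, chr19:12938384-12938402, plus strand: CGTGGtcgaccatcATTGG
CANX, chr5:179698778-179698796, plus strand: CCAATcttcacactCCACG
PDIA6, chr2:10812853-10812871, minus strand: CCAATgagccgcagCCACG

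Distances are from the RefSeq start of the window that held the match, which can differ from the GENCODE 44 start. The match began 66 bases before this start in HSPA5. In PDIA6 it began 86 bases before a start inside the GENCODE 44 span, and the window of another PDIA6 start held none. HSP90B1 held a pair of matches on opposite strands, beginning 194 and 89 bases before its RefSeq start. Both lie inside its GENCODE 44 span, which starts further upstream. To show an ERSE and the ERSE-II matches in their surroundings, the sequence before the start is given for 3 genes, as far as it lies outside the gene's span in GENCODE 44, with the matches in capitals.
HSPA5, chr9:125241383-125241593, minus strand: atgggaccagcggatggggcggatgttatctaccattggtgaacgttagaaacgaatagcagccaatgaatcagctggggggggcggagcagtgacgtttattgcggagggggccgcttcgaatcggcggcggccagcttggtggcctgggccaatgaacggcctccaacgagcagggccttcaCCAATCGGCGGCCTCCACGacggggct
HYOU1, chr11:119057228-119057455, minus strand: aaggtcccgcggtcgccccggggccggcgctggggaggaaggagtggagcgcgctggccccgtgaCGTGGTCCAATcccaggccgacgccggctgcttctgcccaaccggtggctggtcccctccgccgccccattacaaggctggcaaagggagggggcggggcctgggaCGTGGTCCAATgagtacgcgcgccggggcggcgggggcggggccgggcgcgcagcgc
SDF2L1, chr22:21642052-21642301, plus strand: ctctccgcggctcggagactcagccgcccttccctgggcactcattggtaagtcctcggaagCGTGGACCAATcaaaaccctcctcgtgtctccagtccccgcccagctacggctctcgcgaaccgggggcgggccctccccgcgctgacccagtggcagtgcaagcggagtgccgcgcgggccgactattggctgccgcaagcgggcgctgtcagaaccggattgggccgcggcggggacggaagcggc

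HYOU1 held ERSE-II at 2 places, 185 and 79 bases before its RefSeq start, with the same letters at both. The first of them overlapped TGACGTGG, the core of the UPR element bound by XBP1, which no other member held in its windows and which 0.927% of all genes held. For comparison, TGATGNAA, which ATF4 is known to bind with a partner, occurred in 0 of the 9 members with a window and in 4.46% of all genes. TGACNNNGC, the core of the antioxidant response element, occurred in CALR, CANX and SDF2L1 and in 16.1% of all genes. GAANNTTC, the core of the heat shock element, occurred in CANX and in 8.21% of all genes.

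The libraries held 15689294 to 20666692 counts in DMSO (median 16699666) and 12375860 to 17308706 in SFN (median 14408929), and 13378 genes passed the filter on low counts, all 10 members among them. DMSO replicate 1 stood apart from the other libraries. Its mean Spearman correlation with the other DMSO replicates across genes was 0.935, against 0.979 to 0.982 for the others, and its slope of log2 level on log2 transcript length, relative to the mean of all libraries, was -0.271. This slope lay between 0.0872 and 0.148 in the other DMSO replicates, and was -0.0456, -0.183, -0.0574, -0.0355 and 0.109 in SFN replicates 1 to 5, so it was lower in 4 of the SFN libraries than in DMSO replicates 2 to 5. Calls and counts of the genes described here are therefore given with and without DMSO replicate 1. Of 10 markers of retinal pigment epithelium, 9 had a row, and RPE65, RLBP1 and SERPINF1 had at most 4 counts in a library, while BEST1 had 97 to 672 counts in DMSO and 275 to 1244 in SFN. MITF had 758 to 1210 counts in DMSO and 217 to 401 in SFN, and OTX2 216 to 299 and 107 to 157, so that the counts of both were lower in SFN without overlap. PMEL, RDH5 and LRAT had at most 29, 20 and 12 counts in a library. The summed level of the list was 68.1 to 100.2 CPM (counts scaled to a common library size) in DMSO and 55.7 to 128 CPM in SFN. Mesenchymal markers summed to far more, 10042 to 17607 CPM in DMSO and 15210 to 17710 CPM in SFN. Epithelial markers summed to 695 to 778 CPM in DMSO and 672 to 916 CPM in SFN. The sums of neuronal markers were 3.65 to 6.63 CPM and 2.83 to 4.46 CPM. Leukocyte markers summed to at most 0.347 CPM and endothelial markers to at most 0.496 CPM.

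Most of the ER lumen genes were higher in SFN than in DMSO, by less than 2-fold. SFN and DMSO were compared by the quasi-likelihood test of edgeR, with p-values adjusted (Benjamini-Hochberg) over all tested genes. At an adjusted p under 0.05, 6 of the 10 were increased (HSPA5, PDIA6, CALR, PDIA4, P4HB and HSP90B1), while 9.07% of all tested genes were increased. HYOU1, PDIA3, CANX and SDF2L1 were not past the threshold. None was decreased (0 of 10, also 0 at an unadjusted p under 0.05), against 13.9% of all tested genes, and 0 of 10 were increased over 2-fold, against 2.94%. The median log2 fold change was 0.43 for the 10 genes and -0.03 for all tested genes. Summed over the 10 genes, their share of all counts was 0.968% to 1.06% in the DMSO libraries and 1.31% to 1.40% in the SFN libraries, so the groups did not overlap. The most counted genes weigh most in this sum, as SFN means ran from 38.6 CPM in SDF2L1 to 3632 CPM in HSP90B1. Taken singly, 4 of the 10 genes had every SFN library above every DMSO library, against 8.78% of all tested genes, and 0 of 10 had every SFN library below, against 11.1%. Over DMSO replicates 2 to 5 the SFN libraries were all above in 8 of the 10, all but HYOU1 and CANX, against 16.6% of the same tested genes. DESeq2 gave 6 members increased and 0 decreased, with 9.44% of 19483 genes increased and 10.6% decreased. CPM are shares of a library scaled by the TMM method, and fewer cells and less RNA per cell cannot be told apart from them. Without DMSO replicate 1, 9 of the 10 genes were increased, all but CANX, with HSPA5 and SDF2L1 over 2-fold. In that comparison 22.5% of 13566 tested genes were increased, 4.1% over 2-fold, and 23.5% were decreased. With any other single replicate left out, 3 to 5 of the 10 were increased, as were 906 to 1141 of all tested genes.

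**Figure D1:**
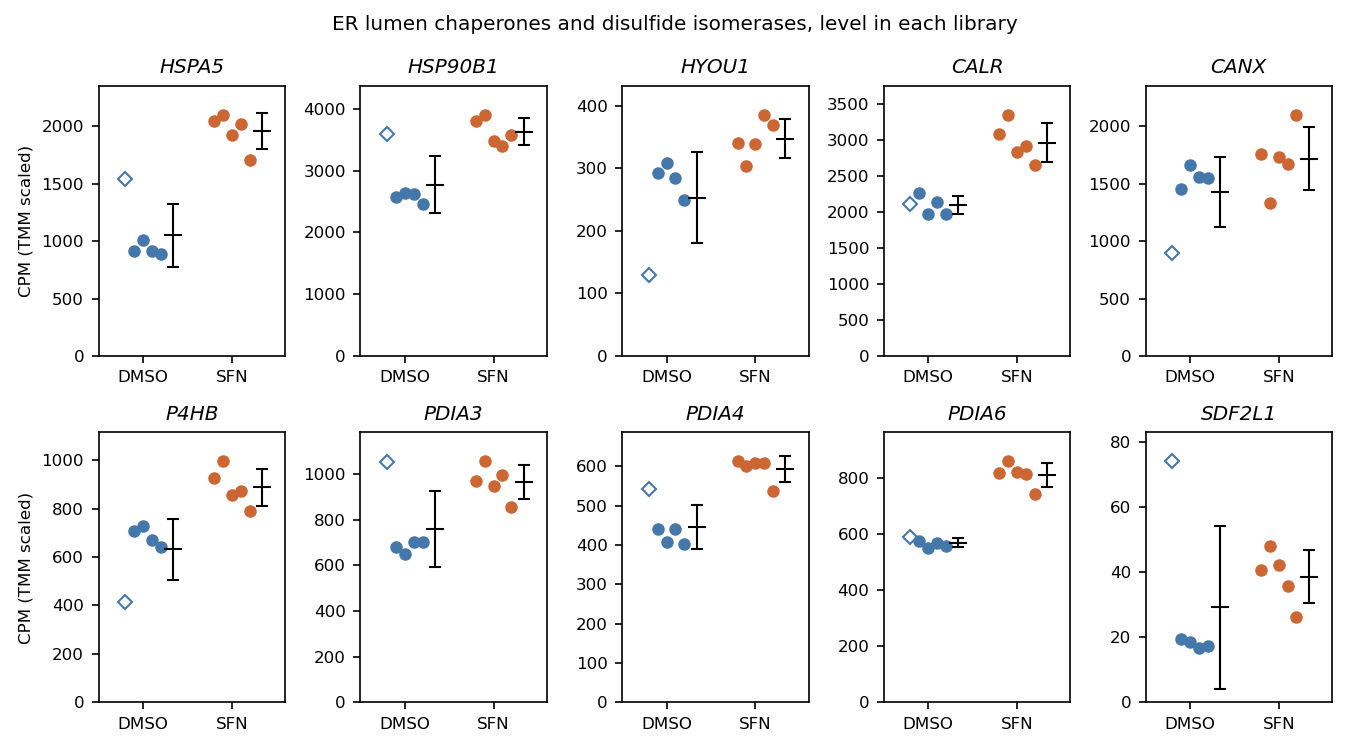
Level of each gene (CPM after TMM scaling, linear axes from 0) in the 5 DMSO and 5 SFN libraries. Points are libraries in replicate order, the open diamond is DMSO replicate 1, and bars give mean and SD (n = 5); in HSPA5, CALR, P4HB and PDIA6 all SFN points lie above all DMSO points.

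HSPA5 (ENSG00000044574, chr9:125234853-125241382, minus strand, 8 exons, in GENCODE 44 on GRCh38, as for the genes below) encodes BiP, the HSP70 of the ER lumen. Its level in DMSO replicates 1 to 5 was 1538, 914, 1009.8, 918 and 885 CPM, and in SFN replicates 1 to 5 it was 2044, 2100.4, 1923, 2022 and 1707 CPM. Every SFN library was above every DMSO library, and DMSO replicate 1 was the highest of its group. The mean rose from 1053 ± 275 CPM (SD, n = 5) to 1959 ± 155 CPM (SD, n = 5), or 1.86-fold (log2 fold change 0.90, standard error (SE) 0.16, edgeR adjusted p = 0.0019). The fold was 2.09 without DMSO replicate 1 (log2 fold change 1.07, SE 0.08). With all libraries its log2 fold change was the highest of the 10 genes, but its 95% interval, 0.54 to 1.25, overlapped those of the others, and without DMSO replicate 1 that of SDF2L1 was 1.09. Counts per library lay between 14947 and 34287.

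HSP90B1 (ENSG00000166598, chr12:103930107-103953931, plus strand, 18 exons) encodes GRP94, the HSP90 of the ER lumen. DMSO replicates 1 to 5 had 3585, 2566, 2633, 2629 and 2457 CPM. SFN replicates 1 to 5 had 3811, 3901, 3477, 3402 and 3568 CPM. The groups overlapped because DMSO replicate 1 was above 3 of the SFN libraries, and the other DMSO libraries were below them all. The increase, 1.31-fold, was close to the threshold (log2 fold change 0.39, SE 0.13, edgeR adjusted p = 0.045). It was 1.41-fold without DMSO replicate 1 (edgeR adjusted p = 0.00013), and leaving out any other single replicate put its adjusted p above 0.05, at up to 0.11.

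HYOU1 (chr11:119044188-119057227, minus strand, 26 exons) encodes GRP170, a large relative of HSP70 that exchanges the nucleotide of BiP. Its levels were 129, 292, 309, 284 and 249 CPM in DMSO replicates 1 to 5 and 340.0, 303, 339, 385 and 369.9 CPM in SFN replicates 1 to 5. DMSO replicate 1 was far below the rest, and SFN replicate 2 lay within the range of the other DMSO libraries. The log2 fold change was 0.46 (standard error 0.20, 95% interval 0.02 to 0.90), which was not past the threshold (edgeR adjusted p = 0.13). Without DMSO replicate 1 the difference was smaller, 1.22-fold, with a lower standard error of 0.09, and was past it (log2 fold change 0.29, adjusted p = 0.019).

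SDF2L1 (chr22:21642302-21644299, plus strand, 3 exons) encodes a small ER protein that works with BiP and its J-domain partners. It was the least counted of the 10, with 280 to 1189 counts per library. DMSO replicates 1 to 5 had 74.0, 19.5, 18.4, 16.9 and 17.4 CPM, and SFN replicates 1 to 5 had 40.8, 48.1, 42.2, 35.8 and 26.2 CPM. DMSO replicate 1 was above all SFN libraries, whereas the other 4 DMSO libraries were below all of them. With all libraries the log2 fold change was 0.40 with a standard error of 0.41 (edgeR adjusted p = 0.54). Without DMSO replicate 1 it was 1.09, or 2.13-fold (standard error 0.15, adjusted p = 4.8e-05), so that 1 library decided this call.

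The lectin chaperones differed from each other in their calls. CALR (chr19:12938578-12944489, plus strand, 9 exons) encodes calreticulin, the soluble lectin that binds glycoproteins whose glycans still carry glucose. Its levels were 2119.8, 2266, 1968, 2145 and 1977 CPM in DMSO replicates 1 to 5 and 3085, 3352, 2839, 2914 and 2650.0 CPM in SFN replicates 1 to 5. The groups did not overlap, and DMSO replicate 1 was neither the highest nor the lowest of its group. CALR rose 1.42-fold (log2 fold change 0.50, SE 0.11, edgeR adjusted p = 0.0049), and the fold was also 1.42 without DMSO replicate 1. CANX (chr5:179678628-179731641, plus strand, 15 exons) encodes calnexin, the lectin anchored in the ER membrane. Its levels were 898, 1452, 1659.8, 1563 and 1551 CPM in DMSO replicates 1 to 5 and 1757, 1332, 1734, 1671 and 2099 CPM in SFN replicates 1 to 5. SFN replicate 2 lay below 4 of the DMSO libraries, so the groups overlapped with or without DMSO replicate 1. The log2 fold change of CANX was 0.27 (standard error 0.18, 95% interval -0.11 to 0.66, edgeR adjusted p = 0.31), and 0.14 (adjusted p = 0.33) without DMSO replicate 1. Whether the changes of CALR and CANX differ was not tested.

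Of the 4 disulfide isomerases, P4HB, PDIA4 and PDIA6 rose and PDIA3 was not past the threshold. P4HB (chr17:81843159-81860856, minus strand, 11 exons) encodes PDI itself, which is also the beta subunit of prolyl 4-hydroxylase. It had 416, 708, 729, 671 and 639.6 CPM in DMSO replicates 1 to 5 and 926, 994, 854, 874 and 788 CPM in SFN replicates 1 to 5. The groups did not overlap, and DMSO replicate 1 was the lowest library. P4HB rose 1.40-fold (log2 fold change 0.49, SE 0.15, edgeR adjusted p = 0.038). Without DMSO replicate 1 the rise was 1.29-fold (adjusted p = 0.0030). In 7 of the 10 cases with 1 replicate left out P4HB was no longer past the threshold, with adjusted p up to 0.084.

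PDIA6 (chr2:10783391-10837977, minus strand, 13 exons) encodes P5, a disulfide isomerase that associates with BiP. Its DMSO libraries were tightly grouped, at 591, 574, 551, 569 and 558 CPM in replicates 1 to 5. SFN replicates 1 to 5 had 815, 858, 820.2, 812 and 741 CPM, all above the DMSO libraries. The rise was 1.42-fold (log2 fold change 0.51, SE 0.09, edgeR adjusted p = 0.0017) and 1.43-fold without DMSO replicate 1. The coefficient of variation in DMSO, 2.71%, was the lowest of the 10 genes.

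PDIA4 (chr7:149003062-149028662, minus strand, 10 exons) encodes ERp72. Its levels were 542, 441, 408, 441 and 402 CPM in DMSO replicates 1 to 5 and 612, 601, 608, 609 and 537 CPM in SFN replicates 1 to 5. SFN replicate 5 was the lowest SFN library and lay just under DMSO replicate 1, and no other libraries overlapped. PDIA4 rose 1.33-fold (log2 fold change 0.41, SE 0.11, edgeR adjusted p = 0.019). Its rise was 1.40-fold without DMSO replicate 1, and in 4 of the 10 cases with 1 replicate left out PDIA4 was no longer past the threshold, with adjusted p up to 0.053.

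PDIA3 (chr15:43746394-43773279, plus strand, 13 exons) encodes ERp57, which works on glycoproteins held by calnexin and calreticulin. DMSO replicates 1 to 5 had 1053, 680.0, 651, 701 and 704 CPM, and SFN replicates 1 to 5 had 969, 1054, 946, 996 and 857 CPM. DMSO replicate 1 was level with the highest SFN library, and the other DMSO libraries were below all SFN libraries. The log2 fold change of PDIA3 was 0.35 (standard error 0.14, edgeR adjusted p = 0.11) with all libraries and 0.49 (adjusted p = 0.00020) without DMSO replicate 1. Its pseudogene PDIA3P1, to which reads of PDIA3 could be assigned, had at most 158 counts in a library, against at least 11636 for PDIA3.

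**Figure D2:**
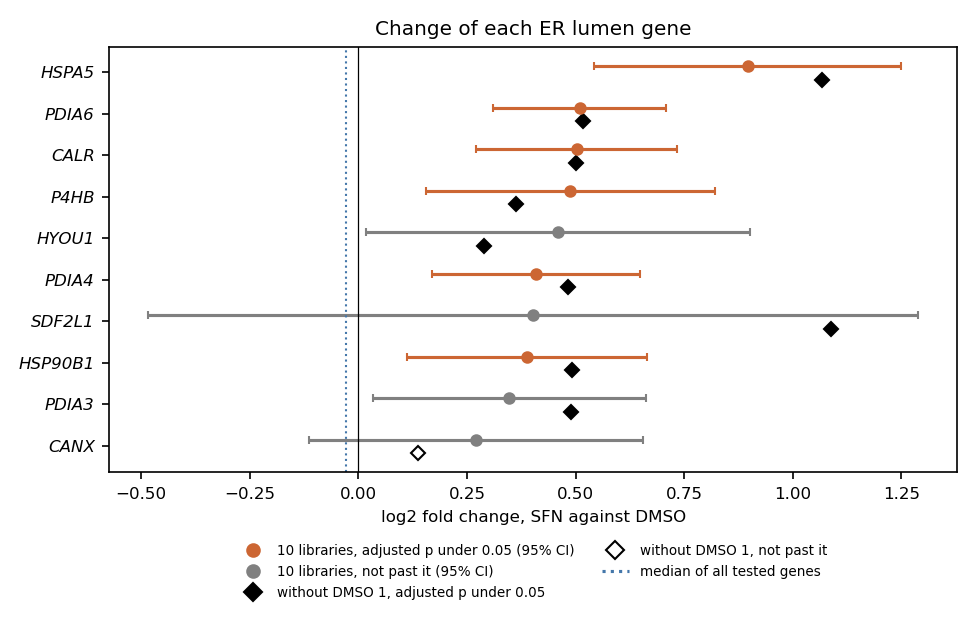
Log2 fold change of each gene, SFN against DMSO, with its 95% interval by edgeR's quasi-likelihood test over 10 libraries (circles and bars) and without DMSO replicate 1 (diamonds). All circles lie above 0 and above the median of all tested genes (-0.03, dotted); the diamond of SDF2L1, at 1.09, lies far from its circle at 0.40.

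DMSO replicate 1 did not move the 10 genes in one direction. It was above all other DMSO libraries in 6 of them, from 1.05 times their mean in PDIA6 to 1.65 times in HSPA5 and 4.10 times in SDF2L1. It was below all of them in HYOU1, CANX and P4HB, at 0.454, 0.577 and 0.605 times their mean. CALR alone lay inside their range. Its canonical transcript of 1901 bases and the 2279 bases of PDIA6 lie between the extremes of length, 825 bases for SDF2L1 and 4915 for CANX. So do P4HB (2437 bases), PDIA4 (2767) and HSP90B1 (2782). In these, DMSO replicate 1 differed from the mean of the other DMSO libraries by -0.72, 0.36 and 0.48 in log2 CPM. Over the 10 genes the correlation of log2 length with the deviation of DMSO replicate 1 was r = -0.69, and r = -0.27 over the 9 genes other than SDF2L1. These points share 1 library. A fit with a correction for transcript length over all genes gave HYOU1 a log2 fold change of 0.59 and CANX 0.40, where the fit without it gave 0.46 and 0.27. Among the SFN libraries, replicate 2 was the highest in 7 genes and replicate 5 the lowest in 7.

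**Figure D3:**
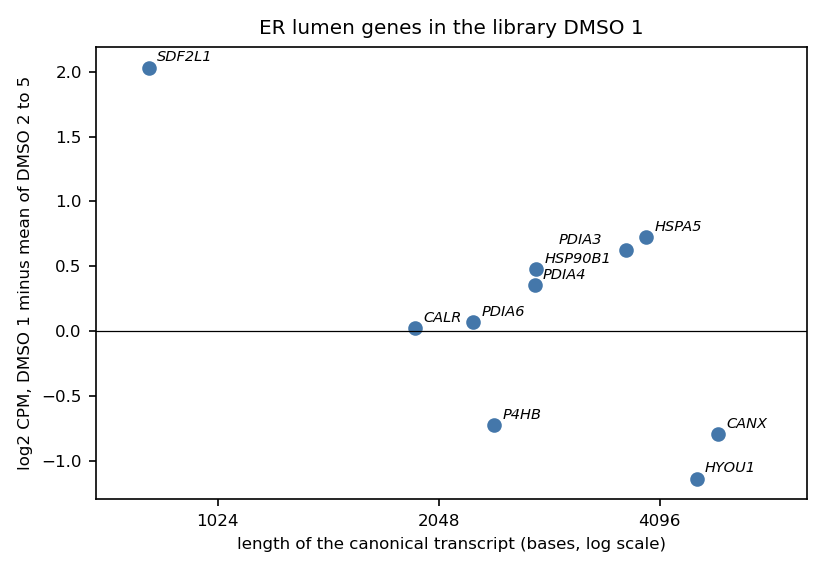
Difference between log2 CPM in DMSO replicate 1 and the mean of DMSO replicates 2 to 5 (vertical axis) against the length of the canonical transcript in bases (horizontal axis, log scale), one point per gene. SDF2L1, the shortest, is the highest point, HYOU1 and CANX, the longest, are among the 3 below 0, and HSPA5 and PDIA3 are long genes above 0.

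The libraries form a DMSO and an SFN cluster, and a correlation over all 10 reflects both the difference between them and the spread within them. The Pearson correlation of log2 CPM with HSPA5, given as a description, was 0.974 for PDIA4, 0.961 for HSP90B1, 0.934 for PDIA6, 0.917 for PDIA3, 0.883 for CALR and 0.796 for SDF2L1. It was 0.479 for P4HB, 0.246 for HYOU1 and 0.080 for CANX, the genes that DMSO replicate 1 had low. Over the 9 libraries without it, the correlation was 0.942 for P4HB, 0.762 for HYOU1 and 0.267 for CANX. For deviations from the group means over the 10 libraries it was 0.919 for HSP90B1, 0.891 for PDIA4, 0.936 for PDIA3, 0.967 for SDF2L1, 0.580 for PDIA6 and 0.274 for CALR, and -0.696 for P4HB, -0.876 for HYOU1 and -0.891 for CANX. DMSO replicate 1, the highest of its group in HSPA5 and the lowest in P4HB, HYOU1 and CANX, enters all these values. They are not given without it, so opposite variation within the groups is not read from them. Among 8650 genes with a mean of at least 10 CPM, the pattern most like that of HSPA5 was that of ATF4, a transcription factor of the integrated stress response (r = 0.995). KCMF1 (0.991), C1orf52 (0.990), PNRC2 (0.989) and ZNF394 (0.989) followed.

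A list of BiP co-chaperones, cofactors and related ER proteins had 13 tested genes, not all of them established partners of BiP. Of these 13, 8 were increased and 0 decreased (9.07% and 13.9% of all tested genes), with a median log2 fold change of 0.66. DNAJB9, a J-domain protein that targets BiP, rose from 15.8 ± 1.86 to 59.4 ± 3.91 CPM (SD, n = 5; log2 fold change 1.91, SE 0.11, edgeR adjusted p = 8.0e-07). DNAJB11, which delivers substrates to BiP, rose from 124 to 215 CPM. HSPA13 rose from 102 to 198 CPM, and DNAJC3, a further J-domain protein, from 92.1 to 166 CPM. In all of these the SFN libraries were above all DMSO libraries. Of the 13, 12 were increased without DMSO replicate 1, when 22.5% of all tested genes were.

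Of 20 other disulfide isomerases and enzymes of ER oxidation, 4 were increased and 1 decreased, with a median log2 fold change of 0.23, while 9.07% of all tested genes were increased and 13.9% decreased. Of the 20, 10 were increased without DMSO replicate 1, when 22.5% of all tested genes were. ERP44, which retains oxidases and client proteins in the ER, rose from 57.0 to 94.7 CPM. GPX8, an ER peroxidase, rose from 137 to 226 CPM, TXNDC12 from 14.3 to 28.7 CPM and TMX2 from 45.8 to 61.3 CPM. VKORC1, a subunit of vitamin K epoxide reductase, fell from 3.36 to 1.78 CPM at no more than 89 counts in a library (log2 fold change -0.92, edgeR adjusted p = 0.030).

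The calnexin cycle, whose glucosidases, glucosyltransferases and cargo receptors act with CALR, CANX and PDIA3, had 0 of 10 genes increased and 0 decreased by edgeR, with 9.07% and 13.9% of all tested genes. At an unadjusted p under 0.05 there were 0 and 0, and 1 and 0 by DESeq2, with 0 and 0 after its adjustment. The median log2 fold change of this list was 0.10, and without DMSO replicate 1 it had 2 of 10 genes increased, a share near the 22.5% of all tested genes, and 0 decreased. Of 20 prolyl isomerases and collagen chaperones 5 were increased and 0 decreased, at a median of 0.26, with 9.07% and 13.9% of all tested genes, and 11 were increased without DMSO replicate 1, with 22.5% of all. P4HA1 and P4HA2, alpha subunits that P4HB joins in prolyl 4-hydroxylase, rose from 86.9 to 151 CPM and from 70.8 to 102 CPM. The lysyl hydroxylases PLOD3 and PLOD1 rose from 55.5 to 97.2 CPM and from 114 to 165 CPM. Of 10 calcium-binding proteins of the secretory pathway only SDF4, of the Golgi lumen, was increased (142 to 195 CPM), about the 9.07% of all tested genes, and 0 were decreased. Of these 10, 5 were increased without DMSO replicate 1. Over these 5 lists, 18 of 73 tested genes (24.7%) were increased and 1 was decreased, at a median log2 fold change of 0.25. Without DMSO replicate 1 the increased genes numbered 40, in the comparison where 22.5% of all tested genes were increased instead of 9.07%.

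**Figure D4:**
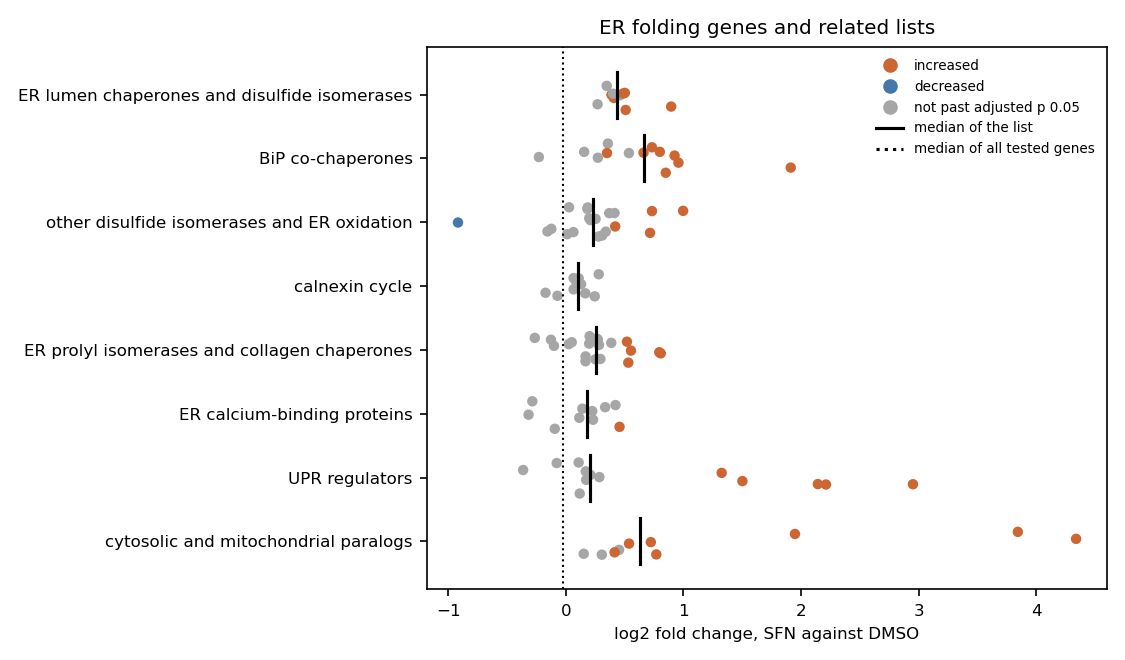
Log2 fold change, SFN against DMSO, of each tested gene (points) in the ER lumen genes and 7 related lists, with the median of each list (bar) and of all tested genes (dotted line). Points are coloured by edgeR's call at an adjusted p of 0.05; the ER lumen genes lie between 0.27 and 0.90, and the widest spreads are in the UPR regulators and the cytosolic and mitochondrial paralogs.

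Of 13 UPR regulators 5 were increased, all over 2-fold, and 0 decreased, while 9.07% of all tested genes were increased, 2.94% over 2-fold, and 13.9% decreased. Leaving out DMSO replicate 1 gave 6 increased and 1 decreased, against 22.5% and 23.5% of all tested genes, and the decreased gene was CREB3L1 (log2 fold change -0.55, edgeR adjusted p = 0.00064). XBP1, the factor spliced by IRE1, rose from 69.2 to 306 CPM (log2 fold change 2.14, edgeR adjusted p = 1.9e-07). HERPUD1, an ER membrane protein of ER-associated degradation, rose from 21.0 to 163 CPM and DDIT3, a transcription factor induced by ER stress, from 7.57 to 35.1 CPM. The sensor kinase PERK, encoded by EIF2AK3, rose from 25.9 to 64.9 CPM, and ATF4 from 236 to 668 CPM. The log2 fold change of ATF6 was 0.29 (adjusted p = 0.12) and that of ERN1, which encodes IRE1, was 0.17 (adjusted p = 0.60), neither past the threshold. The promoter search gave 37 other genes with ERSE or ERSE-II, of which 22 were tested, 7 increased and 2 decreased (9.07% and 13.9% of all tested genes), at a median log2 fold change of 0.28. Leaving out DMSO replicate 1 gave 13 increased and 5 decreased of the 22, against 22.5% and 23.5% of all tested genes. XBP1 was among those with ERSE, and HERPUD1 among those with ERSE-II.

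Of 10 paralogs of the ER chaperones in the cytosol and mitochondria, 7 were increased and 0 decreased (9.07% and 13.9% of all tested genes), at a median log2 fold change of 0.63. Leaving out DMSO replicate 1 gave 9 increased and 0 decreased, against 22.5% and 23.5% of all tested genes. HSPA1B and HSPA1A, inducible HSP70 genes whose near-identical sequences leave their separate values uncertain, had log2 fold changes of 4.34 and 3.84. HSPA4 rose from 494 to 841 CPM, and HSPH1, the cytosolic relative of HYOU1, from 424 to 1638 CPM. To set an ER chaperone against a cytosolic relative within the same library, the log2 ratio of their CPM was taken for 3 pairs. The ratio itself depends on both transcripts' 3′ ends, and only its difference between groups is read. Each result holds for its pair only, and ratios to HSPA1A, HSPA1B or HSP90AA1 were not taken. The log2 fold change of HSP90AA1 was 0.31 (SE 0.43), and 1.05 without DMSO replicate 1.

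The log2 ratio of HYOU1 to HSPH1 was -0.81 ± 0.49 (SD, n = 5) in DMSO and -2.24 ± 0.06 (SD, n = 5) in SFN. The difference of -1.43 had p = 0.0079 by an exact two-sided permutation test, the smallest that the splits of 10 libraries can give, and an adjusted p = 0.024 over the 3 pairs (Benjamini-Hochberg). The SFN libraries, from -2.28 to -2.15, were below all DMSO libraries, from -1.67 in replicate 1 to -0.47. The log2 ratio of HSPA5 to HSPA8, the constitutive cytosolic HSP70, was -1.71 ± 0.25 (SD, n = 5) in DMSO and -1.50 ± 0.07 (SD, n = 5) in SFN. This difference of 0.21 was within the spread (adjusted p = 0.15, exact permutation test), and without DMSO replicate 1 it was 0.31 (adjusted p = 0.0079, exact permutation test). The log2 ratio of HSP90B1 to HSP90AB1 was -0.21 ± 0.17 (SD, n = 5) in DMSO and -0.30 ± 0.06 (SD, n = 5) in SFN, a difference of -0.09 (adjusted p = 0.26, exact permutation test). Without DMSO replicate 1 the difference was -0.17 (adjusted p = 0.0079, exact permutation test). The adjusted p without DMSO replicate 1 was, for this ratio and that of HSPA5, the smallest these splits can give. DMSO replicate 1 was the highest of its group in the HSPA5 ratio and the lowest in the other ratios.

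**Figure D5:**
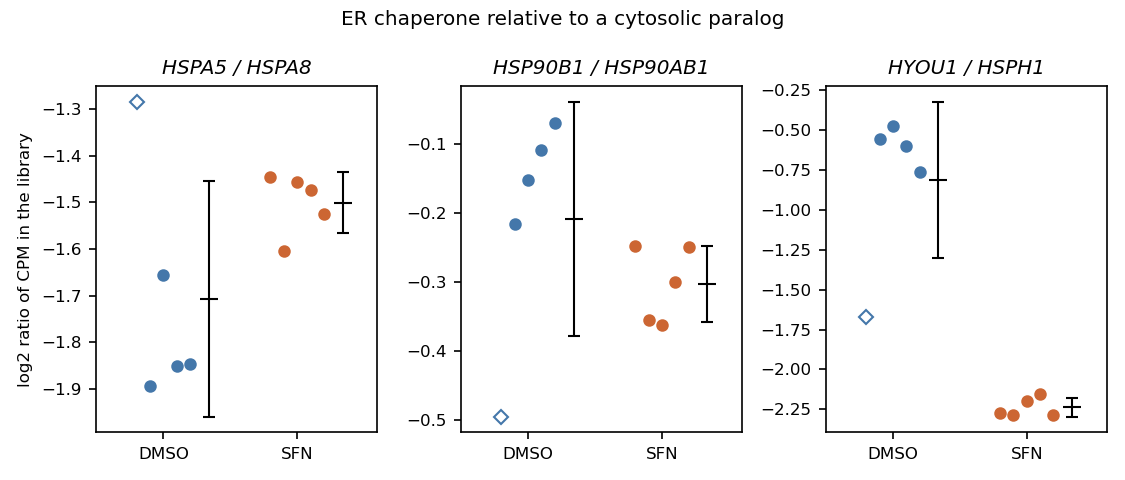
Log2 ratio of an ER chaperone to a cytosolic paralog in each DMSO and SFN library (points, with DMSO replicate 1 as an open diamond) with mean and SD (n = 5); each panel has its own vertical axis, which does not start at 0. The SFN points of HYOU1 to HSPH1 lie below all DMSO points, while the groups overlap through DMSO replicate 1 in the other panels.

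Counts of genes that overlap a member on the opposite strand were low beside those of the member, where strand use in the counting is not stated. The antisense RNA ENSG00000267458 over CALR had 46 to 382 counts in DMSO and 127 to 791 in SFN, against at least 33402 for CALR. ENSG00000262831 over P4HB had 46 to 99 and 119 to 402, against at least 6677 for P4HB. ENSG00000255114 over HYOU1 had at most 117, UQCC6 over HSP90B1 at most 295 and ATP6V1C2 over PDIA6 at most 33.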

How the data were processed

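Total RNA of RPE-1 cells treated with SFN or DMSO (5 replicates each) was sequenced by the authors with Lexogen QuantSeq 3′ libraries. The values deposited by the authors are raw counts per Ensembl gene, not normalized. The submitters' processing notes name FastQC, STAR, featureCounts, edgeR and the builds hg38 and GRCh38, whereas the study's methods name the Bluebee pipeline. Their versions, and the use of strand or molecular identifiers, are not given in the sources used here, and reads without identifiers are not independent molecules.

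Low-count genes were removed by filterByExpr, and after TMM scaling SFN was tested against DMSO with glmQLFit and glmQLFTest (the quasi-likelihood test) of edgeR 4.0.16 in R 4.3.3, with Benjamini-Hochberg adjustment over 13378 genes. Standard errors were derived from the F statistic, as the size of the log2 fold change over the root of F. The study's own model with repeated measures was not run, and limma-voom (limma 3.58.1) with quantile normalization and DESeq2 1.42.0 were alternatives, beside other scalings, filters and leaving out each replicate. The tests were tested on simulated data. The study's methods call replicates independent in general but do not say whether these were separate cultures, so p-values measure the spread between these samples, which may be technical. Chi-square per degree of freedom between replicates ranged from 3.50 to 243, above sampling noise in every pair, and technical repeats could also exceed it.

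The 10 genes and the related lists were chosen with earlier results of these data known. Named genes are the 10, up to 4 increased and 3 decreased with the smallest p in each related list, genes that define a role, overlapping genes and pseudogenes, and the 5 most like HSPA5. GENCODE 44 (GRCh38) gave positions and lengths and held 28145 of the 28380 identifiers.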

Additional observations from a re-analysis of the deposited data

Results flagged for a closer look

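In 28 groups of 5 libraries (10 genes, their summed CPM and the 3 paralog ratios, each in DMSO and in SFN), the highest or lowest library was compared with its nearest neighbour, as the gap divided by the range of the group. In 9 groups 1 library stood apart, and about 1 in 20, or 1.4 of them, is what chance gives. DMSO replicate 1 was the one in 8 of the 9. It was the highest DMSO library in HSPA5 (0.761), HSP90B1 (0.816), PDIA3 (0.839) and SDF2L1 (0.904). It was the lowest in HYOU1 (0.753), CANX (0.782) and P4HB (0.767), and in the log2 ratio of HYOU1 to HSPH1 (0.758). In PDIA4, SFN replicate 5 was the lowest SFN library (0.854), at 537 CPM.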

How the results depend on the processing

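All 10 genes had a log2 fold change above 0 in each of the 20 alternatives, 2 of which (a correction for transcript length, and leaving out DMSO replicate 1 and SFN replicate 2 together) were chosen after seeing the data. HSPA5, CALR and PDIA6 were past the threshold in all 20, PDIA4 in 15, P4HB in 9, HSP90B1 in 7, HYOU1 in 3 and CANX, PDIA3 and SDF2L1 in 2 each. Where a call changed, the cause was not tested. The log2 fold change of HSP90B1 was 0.35 with upper quartile scaling, 0.25 with limma-voom and 0.38 without a low-count filter, and that of P4HB was 0.38 with library size only, 0.36 with limma-voom and 0.47 without the filter, none of them past the threshold. Without the filter PDIA4 was at 0.40, and 3 members were increased. SDF2L1 was at 0.70, CANX at 0.12 and PDIA3 at 0.23 with limma-voom, none of them past the threshold. Genes increased numbered 1840 by DESeq2, and increased and decreased genes numbered 819 and 2163 with library size only and 2028 and 1956 with the length correction, against 1214 and 1862 as reported. The length correction raised the increased genes of the 5 other ER folding lists to 33 and gave HYOU1 0.59 and CANX 0.40, both past the threshold. With DMSO replicate 1 and SFN replicate 2 left out, all 10 members were increased, 2 over 2-fold, with HYOU1 at 0.34, CANX 0.22, PDIA3 0.46 and SDF2L1 1.01, and 3106 genes were increased, 3273 decreased and 42 of the 5 lists increased. The decreased gene of those lists, VKORC1, was lost with limma-voom (0).

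Deviations from the group means showed no general pairing by replicate number (correlation from -0.27 to 0.48, above 0.1 in 1 of 5 pairs). Only DMSO replicate 5 correlated better with its own number in SFN (0.48) than with any other (at most 0.010). DMSO replicate 1 enters these means, so the values cannot show that the samples were unpaired. With a replicate block 911 genes were increased and 1530 decreased, and 0 genes of the 5 lists were decreased. HSP90B1 (0.40) and P4HB (0.51) were no longer past the threshold, and SDF2L1, at 0.68, was not past it either. The HYOU1 to HSPH1 difference of -1.43 had an adjusted p = 0.19 by exact sign flips, which cannot reach the threshold with 5 pairs.

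With 1 replicate left out, 3 to 9 members were increased and 0 to 2 were increased over 2-fold, and 906 to 3058 genes were increased and 1470 to 3193 decreased. In the 5 lists 17 to 40 were increased and 0 to 1 decreased. The upper ends are those without DMSO replicate 1, and 3 members remained without DMSO replicate 5, SFN replicate 1 or SFN replicate 3. Log2 fold changes ranged from 0.84 to 1.07 for HSPA5, 0.35 to 0.49 for HSP90B1, 0.29 to 0.54 for HYOU1, 0.46 to 0.54 for CALR, 0.14 to 0.35 for CANX, 0.36 to 0.54 for P4HB, 0.30 to 0.49 for PDIA3, 0.37 to 0.48 for PDIA4, 0.49 to 0.54 for PDIA6 and 0.26 to 1.09 for SDF2L1. The ratio differences ranged from 0.16 to 0.31 for HSPA5 to HSPA8, -0.17 to -0.060 for HSP90B1 to HSP90AB1 and -1.64 to -1.34 for HYOU1 to HSPH1. Each member had at least 280 counts in every library.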

Other observations

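Genes other than the 10 that carried ERSE or ERSE-II in a promoter window are named here after their values were seen. With ERSE, the log2 fold change was 2.14 for XBP1, 0.66 for FICD, the enzyme that AMPylates BiP, and 0.56 for SERP1, a stabiliser of membrane proteins at the translocon. With ERSE-II it was 2.95 for HERPUD1, 0.88 for ZNF143, 0.39 for SETD3 and 0.34 for SHCBP1. These 7 were below an adjusted p of 0.05 in edgeR, as were ZNF17 (-1.34) and SYNPO (-0.95), both with ERSE and both lower in SFN.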
